A study of Rattus norvegicus with 8 samples.

Results

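The response of the female dorsal root ganglion (DRG) to sciatic nerve injury was examined in 4 of the 8 libraries of the series, namely those of 2 naïve female rats and of 2 female rats on day 14 after chronic constriction injury (CCI). All were gonadally intact adult Sprague Dawley rats, and their stage of the estrous cycle was not identified. In CCI the sciatic nerve is loosely tied with silk sutures. Naïve rats had no surgery, so skin incision, muscle dissection and nerve injury cannot be told apart in these data. Each library held poly(A) RNA from the pooled L4, L5 and L6 ganglia of 1 side of 1 rat, taken on the injured side after CCI. According to the study's methods, only CCI rats with a reduced paw withdrawal threshold were kept. The other 4 libraries, from 2 naïve and 2 CCI males, were used where the change in females was tested against that in males. They also entered alternative fits of the female change over all 8 libraries.

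The DRG holds the cell bodies of the sensory neurons that supply the limb, together with the satellite glial cells that wrap each cell body, Schwann cells around the axons, resident macrophages, fibroblasts and blood vessels. When a peripheral axon is damaged, the neuron is known to turn on a program of transcription factors, cytoskeletal proteins, secreted peptides and ion channel subunits that goes with axon regrowth and with altered excitability, and the glia and immune cells around it respond in turn. In a bulk library, fewer cells of a type and less RNA per cell cannot be told apart.

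The deposited values are raw read counts per Ensembl gene. Total counts were 39489103 to 47537920 in the 4 female libraries. At least 1 count was found on 22352 of 32623 identifiers in females, and 16177 genes passed the filter on low counts and were tested. Levels are given as CPM, the TMM-scaled counts for a library of common size, in the order rat 1 and rat 2. Groups were compared with edgeR's quasi-likelihood test, and a gene was called at a Benjamini-Hochberg adjusted p under 0.05 with an absolute log2 fold change (log2FC, CCI over naïve) above 0.5. Every adjusted p below is from this test over all genes tested. An exact test of 2 rats against 2 cannot go below p = 0.333 for a single gene, so each call rests on a spread shared across genes. The 2 rats of a group correlated at 0.991 in naïve and 0.992 in CCI females across genes, and both pairs differed by more than counting noise. The Y-linked genes Ddx3 and Eif2s3y had at most 1 count in each female library.

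After CCI, 644 genes (3.98%) rose and 351 (2.17%) fell in females. The rise was larger than 2-fold in 219 genes and larger than 8-fold in 51, and the fall was larger than 2-fold in 100 and larger than 8-fold in 20. Genes that rose had a median level of 15.2 CPM in naïve and 28.5 CPM in CCI rats, and genes that fell had 18.5 and 10.7 CPM. The values of the naïve and CCI rats did not overlap in 9808 genes (60.6% of those tested), a share that includes all 995 genes called. The number of calls was lower than reported without either CCI rat and higher without either naïve rat. In a fit with 1 rat on a side, that rat is assumed to vary like the pair on the other side. Without a CCI rat the spread thus came from the naïve pair alone. The chi-square per gene between the 2 rats was 27.17 in naïve and 13.77 in CCI females. In these pairs 372 and 388 genes differed by more than 1 on the log2 scale. A call lost without a CCI rat therefore does not show that it rested on that rat. Why the number differed between these fits was not tested. A call was made in all 4 of these fits for 86 genes, of which 75 rose and 11 fell.

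**Figure D1:**
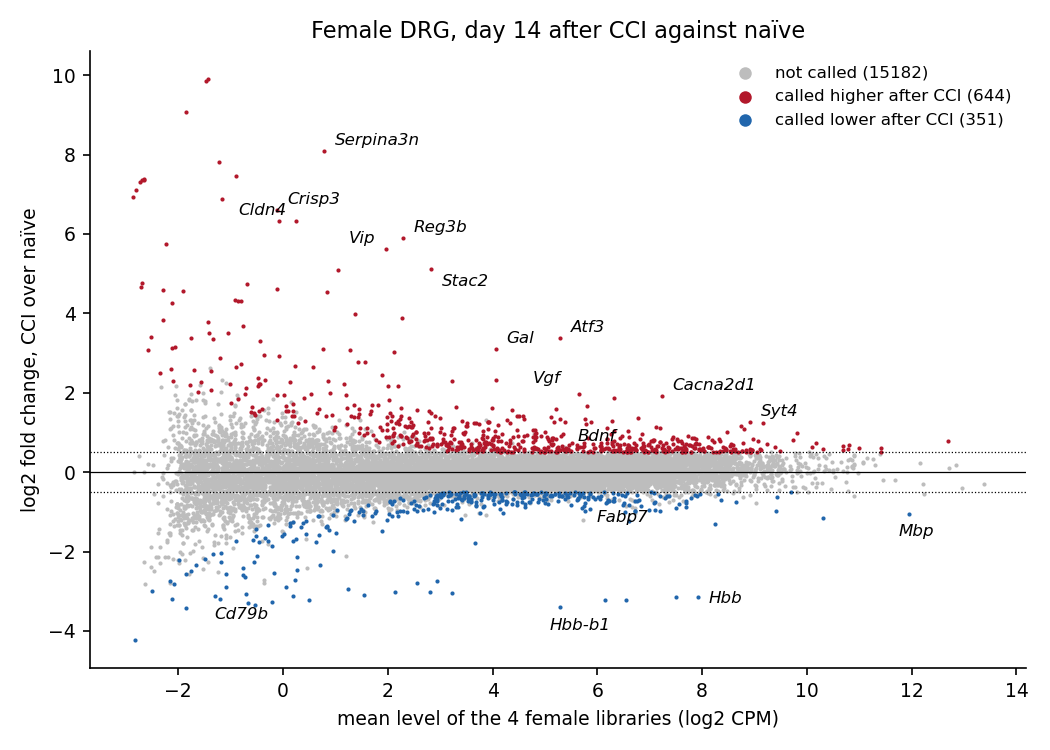
Log2 fold change of CCI over naïve against the mean level in the 4 female libraries (log2 CPM), 1 point per gene tested. The 644 genes called higher (red) reach further from 0 than the 351 called lower (blue), and dotted lines mark a log2FC of 0.5 in each direction.

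Gene symbols were available for 1949 of the genes tested (12.05%), through the study's own gene tables, several of which list genes that the study called on these libraries. Of genes with a symbol 11.1% were called, against 5.48% of those without. The measured members of a list are those that had a symbol here and were tested, often a minor part of it. They were 15 of 39 symbols in the regeneration-associated list, 9 of 30 in the erythroid, 4 of 18 in the B cell and 2 of 19 in the neutrophil list. The members of the lists below are therefore not independent of the comparison, and their counts are given as a description, beside the 3.98% and 2.17% of all genes and a median log2FC of -0.02 over all genes tested. Among tested genes with a symbol, from which all list members come, 5.28% rose and 5.8% fell, with a median log2FC of -0.09.

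Neuropeptides and the proteins of their secretory granules gave some of the largest increases. Vip, which encodes vasoactive intestinal peptide, rose from 0.461 and 0.612 CPM to 26.75 and 25.99 CPM (49.2-fold, log2FC 5.62 ± 0.17 SE, adjusted p = 9.91e-06). Gal, the precursor of galanin, rose from 6.49 and 4.99 to 42.8 and 55.5 CPM (8.53-fold, adjusted p = 0.000204). Both were low in naïve rats and the groups were far apart. Adcyap1, which encodes the peptide PACAP, rose from 46.2 and 37.8 to 156 and 151 CPM (3.65-fold, adjusted p = 0.000263). Vgf, a granin-like precursor of several peptides, rose from 23.9 and 26.7 to 103 and 96.1 CPM (3.93-fold, adjusted p = 9.92e-05). Scg2, the granin secretogranin II, rose less, from 279 and 296 to 408 and 457 CPM (1.51-fold, adjusted p = 0.0103). The call of Scg2 was lost without CCI rat 1 and without CCI rat 2. Of 16 members of the neuropeptide list that were tested, 5 rose and 0 fell, with a median log2FC of 0.45. Of 4 peptidergic nociceptor markers tested, 1 was called (Adcyap1), and all 4 had a positive log2FC. Tac1 and Calca, which belong to that list, did not pass. Tac1, the substance P precursor, was at 309 and 208 CPM in naïve and at 340 and 348 CPM after CCI (adjusted p = 0.145). Calca, the precursor of calcitonin and CGRP, was at 1061 and 782 CPM against 1065 and 1109 CPM (adjusted p = 0.298). In both, naïve rat 2 was the low one.

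The sequences upstream of 4 of the peptide genes that rose together are shown because cyclic AMP response elements (CRE, TGACGTCA) and AP-1 sites (TGANTCA) are known from promoters of genes that neurons turn on with activity and injury. Each is the 250 bases before the RefSeq start in GRCr8, 5′ to 3′ on the gene's strand, with a CRE match in capitals.
Vgf, GRCr8 chr12:25277021-25277270, minus strand: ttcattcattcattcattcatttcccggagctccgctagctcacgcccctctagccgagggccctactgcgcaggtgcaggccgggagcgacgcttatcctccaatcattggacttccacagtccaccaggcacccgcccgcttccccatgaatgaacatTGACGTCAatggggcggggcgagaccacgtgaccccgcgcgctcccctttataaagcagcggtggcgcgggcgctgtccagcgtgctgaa
Scg2, GRCr8 chr9:88256867-88257116, minus strand: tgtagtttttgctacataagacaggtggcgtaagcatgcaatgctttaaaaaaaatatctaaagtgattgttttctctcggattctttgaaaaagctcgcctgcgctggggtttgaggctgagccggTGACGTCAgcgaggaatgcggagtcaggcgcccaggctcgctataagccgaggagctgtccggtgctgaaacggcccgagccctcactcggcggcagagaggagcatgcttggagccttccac
Vip, GRCr8 chr1:44470230-44470479, plus strand: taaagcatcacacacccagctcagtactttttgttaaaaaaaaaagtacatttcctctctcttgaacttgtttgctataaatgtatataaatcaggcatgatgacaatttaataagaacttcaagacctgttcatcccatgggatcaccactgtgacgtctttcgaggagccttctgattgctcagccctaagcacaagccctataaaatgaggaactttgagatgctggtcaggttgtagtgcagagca
Gal, GRCr8 chr1:210084573-210084822, minus strand: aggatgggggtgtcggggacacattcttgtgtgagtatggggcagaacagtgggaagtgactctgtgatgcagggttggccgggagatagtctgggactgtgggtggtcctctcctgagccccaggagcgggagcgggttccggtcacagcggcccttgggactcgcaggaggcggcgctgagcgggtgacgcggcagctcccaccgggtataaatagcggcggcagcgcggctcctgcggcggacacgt
An exact CRE match was found upstream of Vgf and of Scg2, and no exact match of either motif in these windows of Vip and Gal. Near matches were not searched for, and the Vip window holds tgacgtct, which differs from the CRE in its last base. Both motifs read the same on either strand, so each was counted once. Of the genes that rose, 71 matched a gene with a single start in the promoter table by symbol. Of these, 2 held the CRE (2.82%), namely the printed Vgf and Scg2, and 4 the AP-1 motif (5.63%). The shares were 3.61% and 6.02% in 83 genes that fell, 2.84% and 5.19% in 1233 tested genes that were not called, and 1.72% and 6.35% in all 24206 promoters. The genes that rose thus held either motif at a share close to that of genes not called. These are matches of letters in 1 window per gene, and binding was not measured.

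The regeneration-associated list holds 39 symbols, and those without a match to an identifier could not be assessed. Of its 15 measured members 14 rose and 0 fell, with a median log2FC of 1.23 and a lowest value of 0.46. Atf3, a transcription factor that marks axotomized neurons, rose from 12.6 and 11.7 CPM to 121 and 131 CPM (10.4-fold, log2FC 3.37 ± 0.09 SE, adjusted p = 9.91e-06), with CCI values about as close to each other as the naïve ones. Flrt3, an adhesion protein of growing neurites, rose from 29.9 and 32.9 to 99.3 and 99.1 CPM (adjusted p = 0.000146). Gadd45a, a DNA damage response gene that is also induced by axotomy, rose from 36.4 and 35.4 to 82.8 and 83.9 CPM (adjusted p = 0.000322). Ecel1, a membrane metalloprotease induced in injured neurons, rose from 1.801 and 1.201 to 12.5 and 12.4 CPM (8.22-fold, adjusted p = 0.00036). Arg1, which encodes arginase 1, rose from 0.963 and 0.659 to 7.24 and 6.63 CPM (8.47-fold, adjusted p = 0.000732). In each of these 5 genes both CCI rats were above both naïve rats, which holds for every gene called higher. Their calls held whichever rat was left out. Without CCI rat 1, 11 members of the list were called, and without CCI rat 2, 10.

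Genes of the growing cytoskeleton rose by smaller factors. Tubb2b, a beta-tubulin of developing neurons, rose from 276 and 296 to 612 and 661 CPM (2.22-fold, adjusted p = 0.00071). Stmn4, a neuronal stathmin that regulates microtubules, rose from 19.6 and 23.5 to 51.0 and 62.2 CPM (adjusted p = 0.00165). Stmn2 was already at 2338 and 2260 CPM in naïve rats and reached 3121 and 3422 CPM (1.42-fold, adjusted p = 0.021), just past the fold threshold, and its call was lost without naïve rat 2 as well as without either CCI rat. Of 9 tubulins, stathmins and neurofilaments, 4 rose and 0 fell, and without CCI rat 1 or 2 only 2 were called in each case. The heavy neurofilament Nefh, a marker of large myelinated neurons, stood at 4185 and 4265 CPM against 4564 and 5311 CPM (adjusted p = 0.215). Reads of tubulin paralogs may be shared where their sequences are nearly the same. Among 15 axon guidance and adhesion genes 4 rose and 0 fell, among them Cbln2, a synaptic organizer that rose 2.06-fold (adjusted p = 0.000922), and the semaphorin receptor subunit Plxna2, which rose 1.77-fold (adjusted p = 0.00488). The call of Cbln2 held whichever rat was left out, and that of Plxna2 was lost without CCI rat 2.

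**Figure D2:**
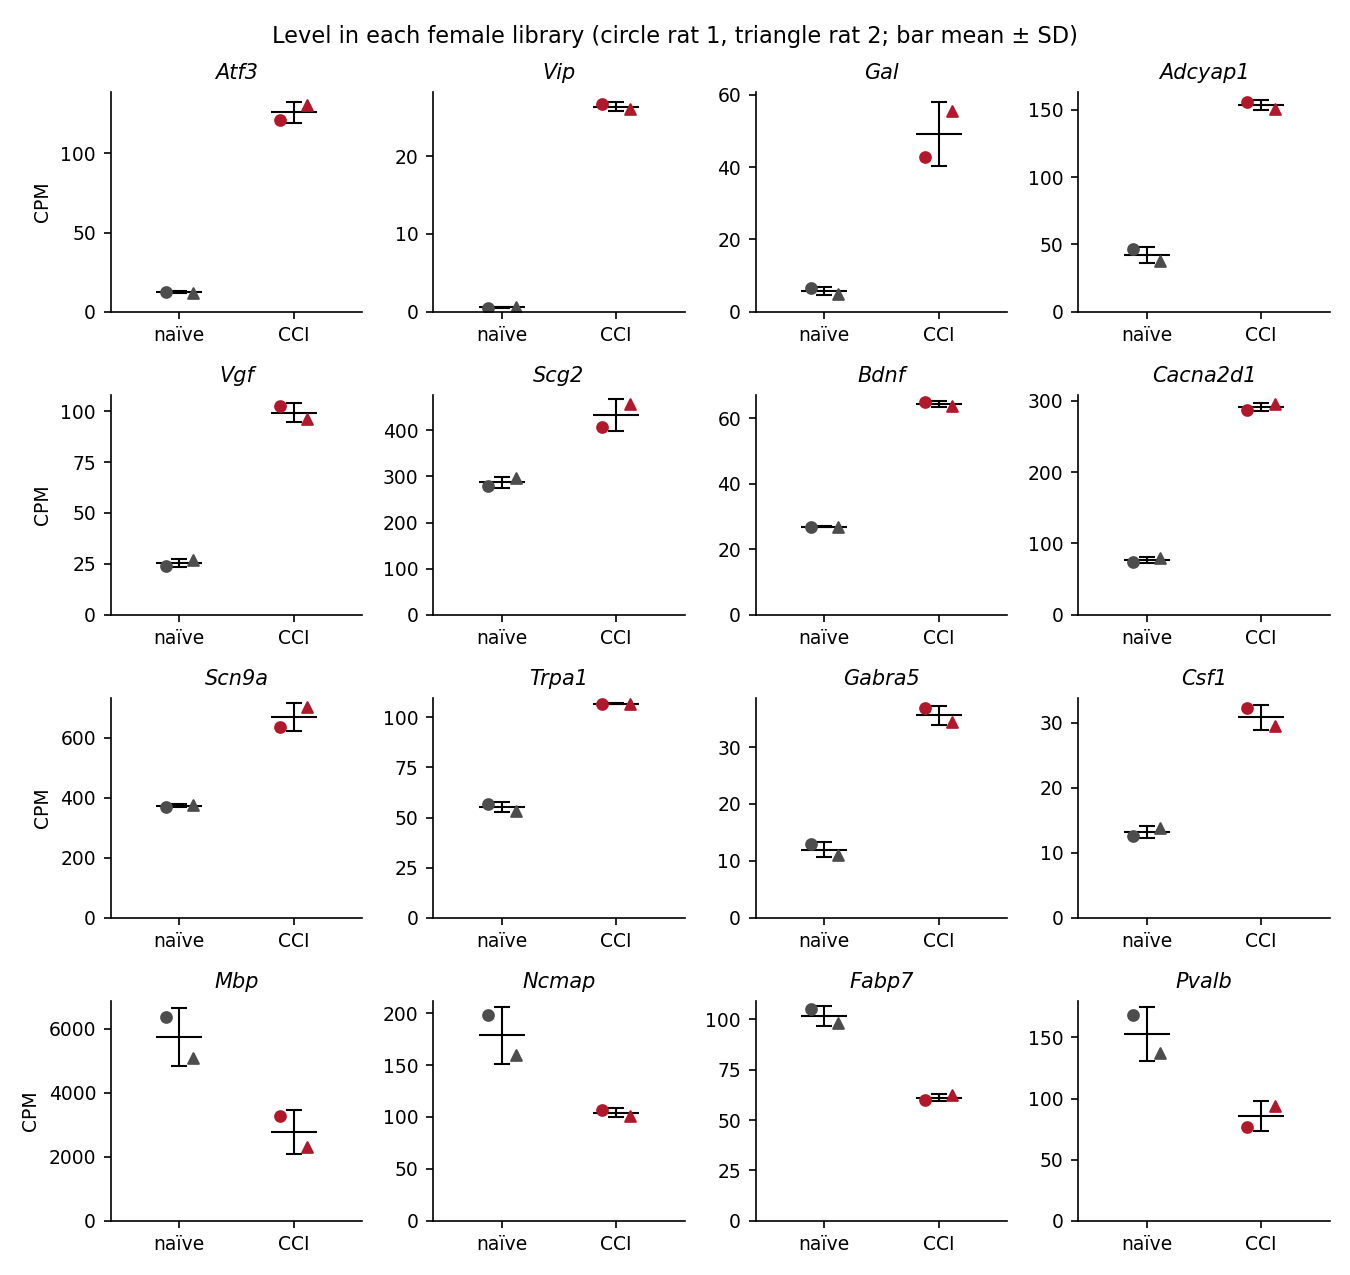
CPM of 16 genes in each female library, with circles for rat 1, triangles for rat 2 and bars for the mean ± SD of 2 rats. The groups do not overlap in any panel, which holds for all 995 genes called. The first 12 genes rose while the last 4 fell.

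Among ion channels, the increases were in a few named subunits. Cacna2d1 encodes the alpha2delta-1 calcium channel subunit, which is the target of gabapentin, and rose from 73.6 and 80.1 to 287 and 295 CPM (3.79-fold, log2FC 1.92 ± 0.09 SE, adjusted p = 9.23e-05). Of the 4 calcium channel genes measured it was the 1 called. Scn9a, the nociceptor sodium channel Nav1.7, rose from 371 and 377 to 638 and 702 CPM (1.79-fold, adjusted p = 0.00267). Scn7a, a sodium-sensing channel of glia and neurons, rose from 862 and 909 to 1344 and 1382 CPM (1.54-fold, adjusted p = 0.00752). These made 2 of 4 sodium channel genes, and the call of Scn9a was lost without CCI rat 2 and that of Scn7a when either CCI rat was left out. Trpa1, the irritant receptor of nociceptors, rose from 56.9 and 53.3 to 107 CPM in both CCI rats (1.94-fold, adjusted p = 0.00104), while the ATP receptor P2rx3 was at 486 and 503 against 624 and 603 CPM (adjusted p = 0.0526). The GABA-A receptor subunit Gabra5, known from extrasynaptic receptors, rose from 12.9 and 11.0 to 36.8 and 34.4 CPM (2.98-fold, adjusted p = 0.000464), and Gabra2 rose 1.46-fold (adjusted p = 0.00859), so that 2 of 9 GABA and glycine receptor genes rose. The call of Gabra2 was lost without CCI rat 1 and without CCI rat 2.

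None of 16 potassium channel genes was called by edgeR or by DESeq2, while 8 had an unadjusted p under 0.05, and their median log2FC was 0.01. Over all genes, 4823 of the 16177 tested had an unadjusted p under 0.05 in the same edgeR test. Such counts in this and later lists are to be read beside that share. The closest were Kcns3 and Kcns1, modulatory subunits of Kv2 channels. Kcns3 was at 114 and 103 CPM in naïve and at 81.8 and 85.2 CPM after CCI (log2FC -0.37 ± 0.08 SE, adjusted p = 0.0342), below the fold threshold. Kcns1 was at 63.5 and 52.8 CPM against 39.1 and 44.9 CPM (log2FC -0.47 ± 0.12 SE, adjusted p = 0.0446). The groups did not overlap for either gene, as in 60.6% of all genes tested. Kcnv1 and Kcnip3, named after their values were seen, also had an adjusted p under 0.05 below the fold threshold. Kcnv1 had a log2FC of 0.43 (adjusted p = 0.0471) and Kcnip3 of -0.32 (adjusted p = 0.0493). The opioid receptors did not pass: the mu receptor Oprm1 was at 17.4 and 17.9 CPM against 21.9 and 21.7 CPM (adjusted p = 0.0825), and Oprl1, the nociceptin receptor, was at 49.6 and 48.4 CPM against 55.5 and 69.0 CPM (adjusted p = 0.0891). Syt4, a vesicle protein of the synaptotagmin family, rose from 318 and 310 to 729 and 767 CPM (2.38-fold, adjusted p = 0.00036) and was the 1 member called of 14 synaptic vesicle and exocytosis genes.

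Markers of the neurons themselves were not called. Of 8 DRG neuron markers 0 were called by edgeR or by DESeq2 (2 at an unadjusted p under 0.05), 7 had a positive log2FC, and the median was 0.20. Avil, an actin-binding protein of sensory neurons, was at 555 and 608 CPM against 706 and 744 CPM (adjusted p = 0.0624). Their summed level was 22509 and 23457 CPM in naïve and 23466 and 27669 CPM in CCI rats. Among 6 markers of large myelinated afferents, Pvalb, the calcium buffer parvalbumin of proprioceptors, fell from 168 and 137 to 76.7 and 94.0 CPM (55.8% of naïve, adjusted p = 0.0105). Pvalb is also made by skeletal muscle, and the other muscle markers are given below. Its call was lost without CCI rat 1 and without CCI rat 2.

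Growth factor and cytokine genes moved in both directions. Bdnf, the neurotrophin made by sensory neurons, rose from 26.9 and 26.8 to 65.0 and 63.9 CPM (2.40-fold, log2FC 1.26 ± 0.08 SE, adjusted p = 0.000322). Lifr, the receptor for leukemia inhibitory factor, rose 1.62-fold from 280 and 312 CPM (adjusted p = 0.00677). Igf1 fell from 24.0 and 36.0 to 18.1 and 15.4 CPM (adjusted p = 0.0329). Bdnf was called whichever rat was left out, and the calls of Lifr and Igf1 were lost without CCI rat 1 and without CCI rat 2. Csf1, a macrophage growth factor that injured sensory neurons are known to make, rose from 12.5 and 13.8 to 32.2 and 29.5 CPM (2.34-fold, adjusted p = 0.00122). Il24, a cytokine of the IL-10 family, had 0 counts in both naïve rats and 1.48 and 1.68 CPM after CCI, which is at least 22.4-fold higher against a floor of 3 counts per naïve library (adjusted p = 0.00265, and 0.0721 without CCI rat 2). Il4r, a receptor chain for interleukin 4, rose 1.801-fold (adjusted p = 0.00603), and Cxcl9, a chemokine induced by interferon gamma, rose 2.27-fold from 3.94 and 3.49 CPM (adjusted p = 0.0149). Tnfrsf25, a death receptor of lymphocytes, fell from 3.58 and 4.78 to 2.35 and 1.58 CPM (adjusted p = 0.046). In all, 6 of 14 cytokine, chemokine and receptor genes rose and 1 fell, with 2 called without CCI rat 1 and 1 without CCI rat 2.

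Acute phase genes gave some of the largest folds. Serpina3n, a secreted protease inhibitor, had 5 and 3 counts in the naïve rats (0.105 and 0.0706 CPM) and reached 13.3 and 36.7 CPM (adjusted p = 0.00142). The CCI rats differed from each other severalfold, and the log2FC was 8.09 ± 0.72 SE. Reg3b, a secreted lectin of the regenerating family, rose from 0.733 and 0.495 to 40.0 and 34.4 CPM (59.7-fold, adjusted p = 1.09e-05). Cp, the copper carrier ceruloplasmin, rose 1.52-fold (adjusted p = 0.00776). Of 6 genes in the JAK-STAT and acute phase list 5 rose and 0 fell, and 2 were called without CCI rat 1 or 2. Interferon-stimulated and complement genes followed in smaller steps. Mx2, an antiviral GTPase, rose from 58.2 and 42.7 to 120 and 125 CPM (2.43-fold, adjusted p = 0.00288), as 1 of 2 in 5 interferon-stimulated genes. The complement components C4b (2.54-fold, adjusted p = 0.0315) and C2 (1.57-fold, adjusted p = 0.0262) rose, as 2 of 7. Without CCI rat 1, and likewise without CCI rat 2, 0 members of either list were called.

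Stac2, an adaptor of voltage-gated calcium channels, rose from 1.47 and 0.918 to 42.6 and 40.8 CPM (34.6-fold, adjusted p = 1.88e-05). Pde6b, a phosphodiesterase subunit best known from photoreceptors, rose from 0.880 and 0.400 to 9.95 and 10.8 CPM (15.9-fold, adjusted p = 0.00052). 3 genes of the epithelial list were near 0 in naïve rats. Tgm1, a transglutaminase of the skin barrier, rose from 0.251 and 0.424 to 11.6 and 11.5 CPM (34.3-fold, adjusted p = 9.92e-05). Cldn4, a tight junction claudin, had 5 counts in each naïve rat and reached 10.7 and 7.51 CPM (79.97-fold, adjusted p = 0.00018). Crisp3, a secreted cysteine-rich protein, had 6 counts and 1 count in the naïve rats and reached 7.01 and 8.49 CPM (adjusted p = 0.000313). The keratin Krt19, which defines epithelia, was at 1.17 and 1.67 CPM against 2.40 and 2.66 CPM (adjusted p = 0.0935). Thus 3 of 4 epithelial and barrier genes rose, and their calls held whichever rat was left out. Of the genes larger than 8-fold, 15 of 51 that rose had a symbol. Among those without one, ENSRNOG00000011292 rose from 2.20 and 0.565 to 27.6 and 13.97 CPM (adjusted p = 0.00589) and ENSRNOG00000048967 from 1.34 and 0.730 to 8.26 and 5.96 CPM (adjusted p = 0.00325), and both calls were lost without CCI rat 1.

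Of 9 cell cycle genes measured, 5 rose and 0 fell, and all 9 had a positive log2FC, with a median of 0.66. The mitotic genes had few reads. Top2a, a topoisomerase of dividing cells, rose from 7.31 and 6.85 to 11.5 and 12.3 CPM (adjusted p = 0.0138). Cenpf, a kinetochore protein, rose from 2.97 and 3.27 to 6.11 and 5.53 CPM (adjusted p = 0.0231), and Prc1, a spindle midzone protein, rose from 6.43 and 6.12 to 10.7 and 10.03 CPM (adjusted p = 0.0182). The calls of Top2a, Cenpf and Prc1 were lost without CCI rat 1 and without CCI rat 2. The cell cycle inhibitor Cdkn1a rose 2.05-fold (adjusted p = 0.0149). It belongs to a list of 8 glucocorticoid-responsive genes, of which 3 rose, with Cebpd (1.48-fold, adjusted p = 0.0247), a transcription factor, and the clock gene Per1 (1.67-fold, adjusted p = 0.0383). Fos, an immediate early gene, rose from 3.48 and 4.57 to 7.93 and 7.09 CPM (adjusted p = 0.0262) as the 1 of 5 immediate early genes called. Ahr, the aryl hydrocarbon receptor, rose 1.48-fold (adjusted p = 0.0135). The call of Cdkn1a was lost without CCI rat 2. Those of Cebpd, Per1, Fos and Ahr were lost when either CCI rat was left out, and those of Cebpd and Ahr also without naïve rat 1.

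**Figure D3:**
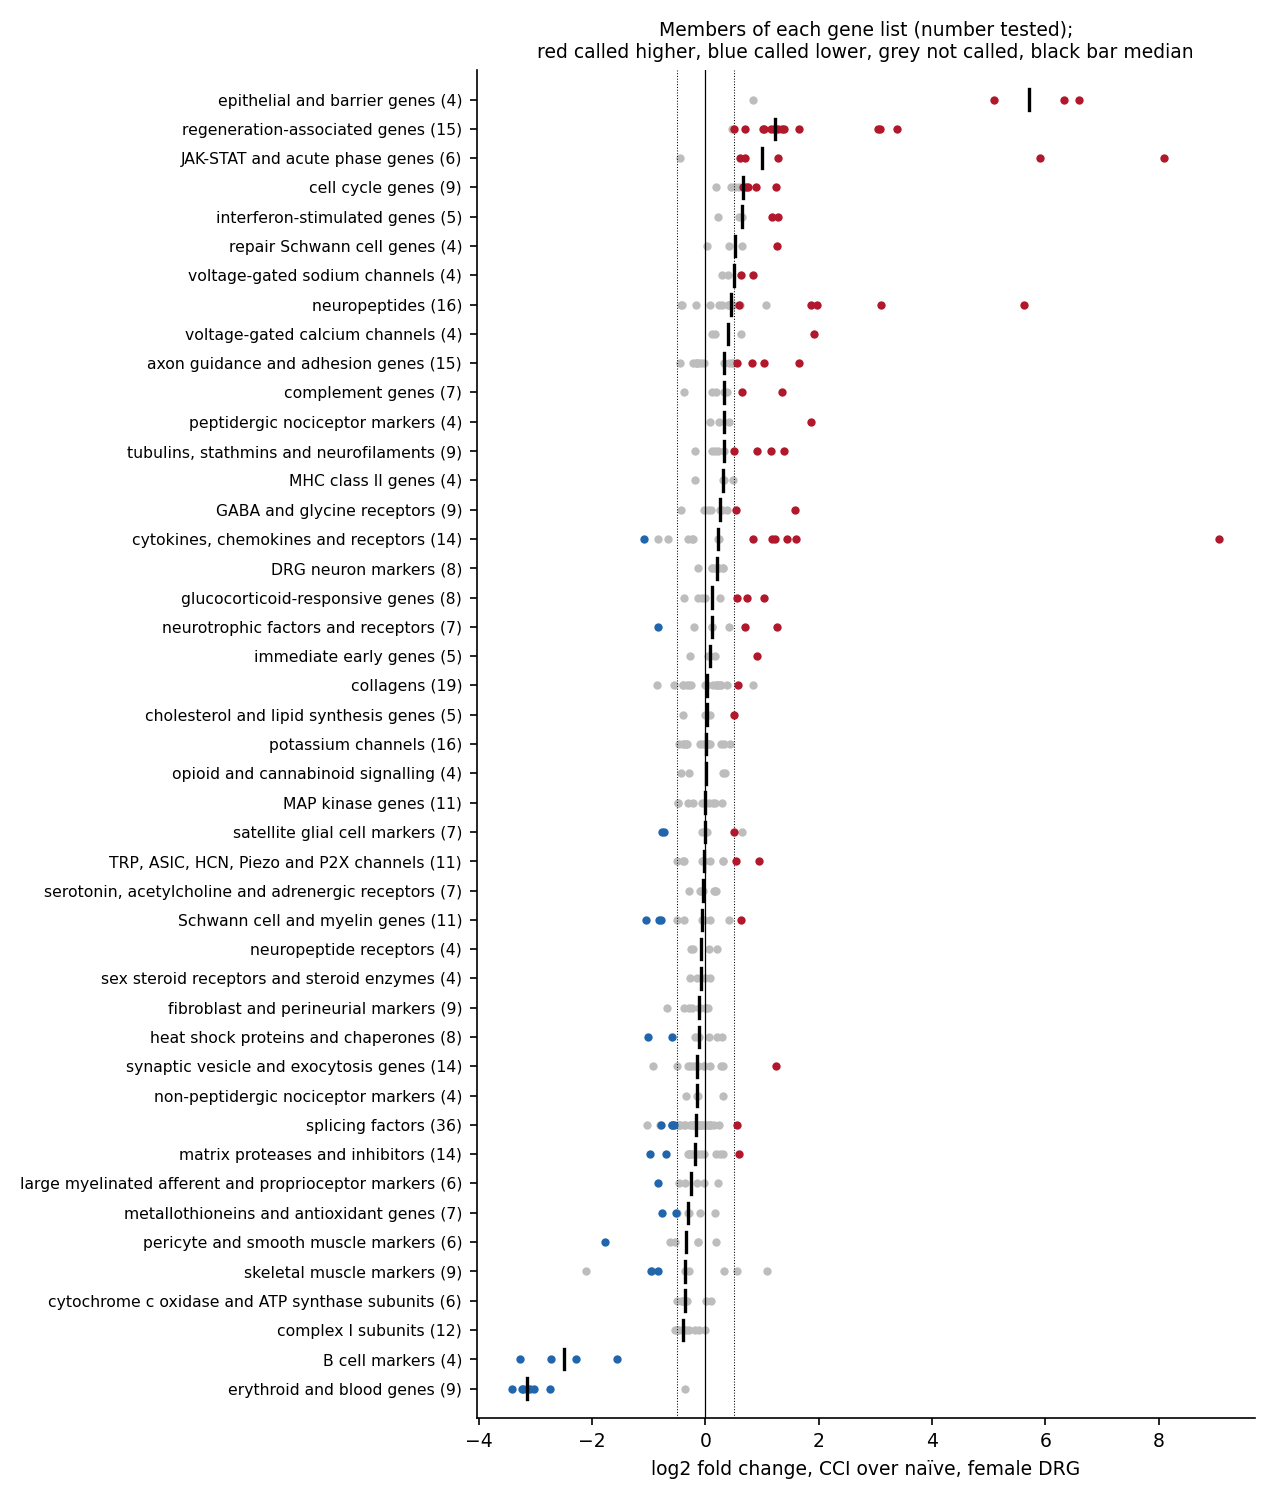
Log2 fold change of CCI over naïve in females for the measured members of 45 gene lists with at least 4 of them, with red points for genes called higher, blue for lower, grey for not called and a black bar for the median. Regeneration-associated genes lie to the right of 0 (median 1.23), and erythroid and blood genes to the left (median -3.14).

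Myelin genes were mixed. Mbp, the myelin basic protein, fell from 6374 and 5093 to 3265 and 2294 CPM (48.5% of naïve, log2FC -1.04 ± 0.18 SE, adjusted p = 0.0158). Ncmap, a protein of non-compact myelin, fell from 198 and 159 to 107 and 101 CPM (58.2% of naïve, adjusted p = 0.00839), and Bcas1, a myelin-associated protein, fell from 133 and 108 to 80.5 and 56.9 CPM (adjusted p = 0.0262). Other defining genes did not pass. Prx, the Schwann cell scaffold periaxin, was at 1448 and 1186 CPM against 1098 and 942 CPM (adjusted p = 0.101), and Mag, the myelin-associated glycoprotein, at 33.4 and 29.6 CPM against 30.3 and 31.8 CPM, where the groups overlapped (adjusted p = 0.912). Sox10, the transcription factor of peripheral glia, was at 129 CPM in both naïve rats and at 123 and 126 CPM after CCI (adjusted p = 0.68). In the Schwann cell and myelin list 3 of 11 genes fell and 1, Scn7a, rose. The summed level was 11137 and 9476 CPM in naïve and 7910 and 6632 CPM in CCI rats, and Mbp made 97.3% of that difference. Without Mbp the other 10 genes summed to 4763 and 4383 CPM in naïve and 4645 and 4338 CPM in CCI rats, so the groups overlapped. The call of Mbp was lost without CCI rat 2, and those of Ncmap and Bcas1 when either CCI rat was left out.

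Satellite glial genes moved both ways. Fabp7, a fatty acid-binding protein of satellite glia, fell from 105 and 98.1 to 59.9 and 62.4 CPM (60.1% of naïve, adjusted p = 0.00311), and Mt3, a metallothionein of nervous tissue, fell from 301 and 242 to 162 and 156 CPM (58.6%, adjusted p = 0.00864). Fasn, the fatty acid synthase, rose 1.42-fold from 411 and 412 CPM (adjusted p = 0.0109). In all 2 of 7 satellite glial genes fell and 1 rose, and their summed level was 2722 to 2937 CPM in all 4 libraries. Scrg1, a small secreted protein of glia and mesenchymal cells, fell from 18.8 and 13.0 to 7.01 and 7.04 CPM (adjusted p = 0.0103). The small heat shock proteins Hspb2 (49.4% of naïve, adjusted p = 0.00424) and Hspb6 (66.4%, adjusted p = 0.0196) fell, as 2 of 8 chaperone genes, and the peroxidase Gpx1 fell from 107 and 82.2 to 69.3 and 63.4 CPM (adjusted p = 0.0464). The rise of Fasn and the falls named in this group of genes were lost without CCI rat 1 and without CCI rat 2, and that of Gpx1 also without naïve rat 1.

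Among named genes the largest decreases were in genes of blood cells. Hbb, an adult beta globin of red cells, fell from 601 and 863 CPM to 69.4 and 96.7 CPM (11.3% of naïve, log2FC -3.14 ± 0.21 SE, adjusted p = 0.00039). Hbb-b1, another beta globin, fell from 106 and 148 to 11.3 and 12.7 CPM (9.42% of naïve, adjusted p = 0.000127). Hba1, Hba2, Hba-a1 and LOC100134871, further globin genes, fell to between 10.7% and 12.3% of naïve, and since globin copies are nearly identical, reads may be split among them. Slc4a1, the anion exchanger of the red cell membrane, fell from 6.76 and 10.1 to 0.869 and 1.11 CPM (adjusted p = 0.00137), and Alas2, the enzyme of erythroid heme synthesis, from 15.7 and 24.4 to 2.46 and 3.57 CPM (adjusted p = 0.00165). Thus 8 of 9 erythroid genes fell, with a median log2FC of -3.14, and all 8 were also called whichever rat was left out. In the edgeR fit over all 8 libraries of both sexes, where the spread of the male libraries enters, the female call held in 1 of the 8, Hbb-b1 (adjusted p = 0.0344), and was lost in the other 7 (adjusted p of 0.0591 to 0.12). In the DESeq2 fit over all 8 libraries it held in 6 and was lost in Slc4a1 and Alas2. The summed erythroid level was 1772.5 and 2497 CPM in naïve and 333 and 362 CPM in CCI rats, and naïve rat 2 was the highest in each of these genes. ENSRNOG00000034229 and ENSRNOG00000011557, which have no symbol here, fell to 12.2% and 12.3% of naïve, and the call of the second was lost when either CCI rat was left out and in both fits over all 8 libraries.

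B cell and neutrophil genes, which had few reads, fell as well. The B cell receptor component Cd79b fell from 2.72 and 2.71 to 0.102 and 0.452 CPM (adjusted p = 0.00979), and the B cell transcription factors Spib and Pou2af1 fell to 15.1% and 20.7% of naïve, so that 4 of 4 B cell genes fell. Np4, a neutrophil defensin, fell from 2.68 and 3.81 to 0.281 and 0.452 CPM (adjusted p = 0.00355), and Ngp, a neutrophil granule protein, from 2.58 and 6.19 to 0.332 and 0.603 CPM (adjusted p = 0.011), which is 2 of 2. Among 3 platelet genes 2 fell: the chemokine Pf4 went from 4.02 and 8.78 to 2.35 and 2.19 CPM (adjusted p = 0.0408), and the receptor Clec1b from 0.607 and 1.79 to 0.153 and 0.101 CPM (adjusted p = 0.0291). Plvap, a protein of fenestrated endothelium, fell to 60.6% of naïve (adjusted p = 0.0356). Without CCI rat 1, 0 of 4 B cell genes were called, and without CCI rat 2, 2. For neutrophil, platelet and endothelial genes, 0 were called when either CCI rat was left out. In the edgeR fit over all 8 libraries the female call held in 0 of 4 B cell, 0 of 2 neutrophil and 1 of the 2 platelet genes, and in the DESeq2 fit over all 8 it held in 3, 0 and 2. The level of blood markers moves with each of these lists, and how much blood each ganglion held was not measured. Leaving the erythroid genes out of the library sizes gave 996 calls in place of 995. Among other white cell lists, MHC class II and mast cell genes are given below. Of 26 macrophage markers 1, Cd163, was tested, at 3.60 and 5.23 CPM in naïve and 5.65 and 5.86 CPM after CCI (adjusted p = 0.259). Of 23 T and NK cell markers 0 were tested.

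**Figure D4:**
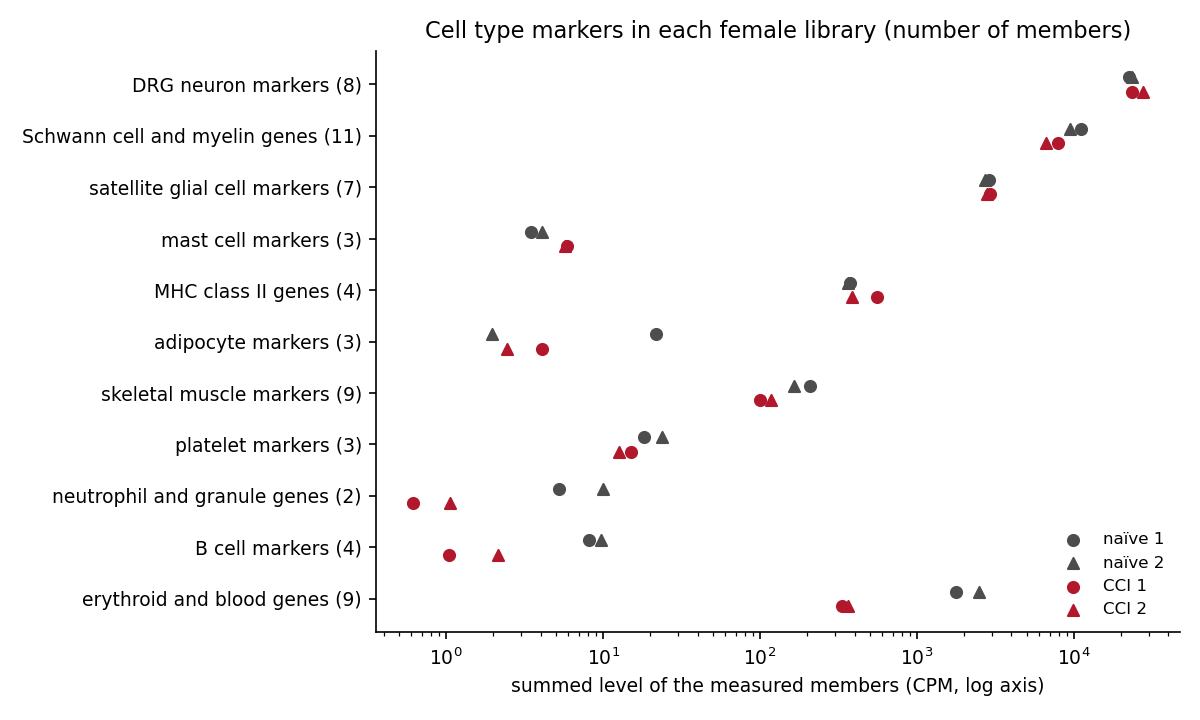
Summed CPM of the measured members of 11 cell type lists in each female library, on a log axis, with naïve rats in grey and CCI rats in red. Erythroid, B cell and neutrophil sums are lower in both CCI rats, and naïve rat 1 stands apart in adipocyte markers (21.6 CPM, against 1.95 to 4.07 CPM in the other 3).

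Markers of tissues next to the ganglion differed between rats of a group. Adipocyte genes were high in naïve rat 1 alone: Car3, a carbonic anhydrase of fat and muscle, was at 12.4 and 0.871 CPM in naïve and 1.89 and 1.21 CPM after CCI, and the fat cell genes Fabp4 (5.40 and 0.589 CPM, against 0.997 and 0.880 CPM) and Adipoq (3.83 and 0.495 CPM, against 1.18 and 0.352 CPM) did likewise. None of the 3 was called by edgeR or DESeq2 or had an unadjusted p under 0.05, and without naïve rat 1 each log2FC turned positive (0.62 to 0.83). Skeletal muscle markers summed to 208 and 164 CPM in naïve and 99.4 and 117 CPM in CCI rats, but Pvalb made 82.3% of the naïve sum. The other 8 summed to 39.7 and 26.1 CPM in naïve and 22.7 CPM in both CCI rats, with Car3 high in naïve rat 1, and 3 of them had a positive log2FC. Of the 9, 2 fell, namely Pvalb and Casq1, a calcium store protein of muscle (3.56 and 3.16 against 1.92 and 1.56 CPM, adjusted p = 0.045). Actg2, a smooth muscle actin, fell from 1.91 and 3.74 to 0.818 and 0.829 CPM (adjusted p = 0.0295). The calls of Casq1 and Actg2 were lost when either CCI rat was left out, and that of Casq1 also without naïve rat 1. MHC class II genes were highest in CCI rat 1: Cd74, the invariant chain, was at 226 and 227 CPM in naïve and at 336 and 229 CPM in CCI rats (adjusted p = 0.225), and RT1-Da at 82.2 and 78.6 against 136 and 88.7 CPM (adjusted p = 0.116). The part of these tissues in the other results was not tested.

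Several groups of genes changed little or rested on 1 rat. Of 36 splicing factors 4 fell and 1 rose, with a median log2FC of -0.17. The kinase Clk1 (97.3 and 121 to 77.8 and 68.2 CPM, adjusted p = 0.0273), the U1 component Snrnp70 (114 and 154 to 94.7 and 83.8 CPM, adjusted p = 0.0443) and the nuclear speckle protein Pnisr (76.5 and 114 to 62.9 and 48.1 CPM, adjusted p = 0.0458) were all highest in naïve rat 2. Without naïve rat 2, 1 splicing factor was called, without naïve rat 1, 12, and when either CCI rat was left out, 0. Subunits of mitochondrial complex I were highest in naïve rat 1. Of 12 tested 0 were called by edgeR, 2 were called by DESeq2, 7 had an unadjusted p under 0.05, and 11 had a negative log2FC, with a median of -0.39, as in Ndufa4 (406 and 265 against 227 and 236 CPM, adjusted p = 0.0933) and Ndufb9 (193 and 140 against 119 CPM in both, adjusted p = 0.0642). Without naïve rat 2, 8 of the 12 were called. Among 14 matrix protease genes 1 rose and 2 fell: the aggrecanase Adamts4 rose 1.51-fold (adjusted p = 0.0125), while Adamts10 fell to 62.1% (adjusted p = 0.0186) and the procollagen protease Adamts14 to 51.0% of naïve (adjusted p = 0.0332). Hapln1, which links hyaluronan to proteoglycans of the perineuronal matrix, fell from 79.8 and 64.7 to 37.1 and 39.6 CPM (adjusted p = 0.0048). Of 19 collagens 1, Col8a1, was called by edgeR, at 1.49-fold (adjusted p = 0.0262), while 3 were called by DESeq2 and 9 had an unadjusted p under 0.05, and the fibroblast proteoglycan Dcn was at 984 and 953 against 794 and 700 CPM (log2FC -0.37 ± 0.10 SE). The calls of Hapln1, Col8a1 and the 3 Adamts genes were lost without CCI rat 1 and without CCI rat 2, and that of Col8a1 also without naïve rat 1. Esr1, the estrogen receptor alpha, was at 6.60 and 7.23 CPM in naïve and 5.70 and 8.02 CPM in CCI rats, so the groups overlapped (adjusted p = 0.981), and 0 of 4 genes of the sex steroid list were called by edgeR or DESeq2, with 1 at an unadjusted p under 0.05. Of 11 MAP kinase genes 0 were called by either tool, with 4 at an unadjusted p under 0.05.

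The female change was then set beside that in males, whose libraries are separate. In males, 1525 of 16685 genes tested rose and 2144 fell. The spread shared across genes, as a coefficient of variation, was 21.6% in males and 9.64% in females. Of the 644 genes that rose in females, 396 (61.5%, and 25.97% of the 1525 that rose in males) also rose in males and 4 fell there. Of the 351 that fell in females, 169 (48.1%, and 7.88% of the 2144 that fell in males) also fell in males and 3 rose there. Being called in 1 sex does not show a difference between them, so the difference itself was tested by the interaction of sex and CCI over all 8 libraries at an adjusted p under 0.05. It passed in 270 of 16988 genes (1.59%), and in 37 of the 995 genes called in females (3.72%). Of these, 20 had risen in females, each with a higher log2FC than in males. Of the 17 that had fallen, 13 had a lower log2FC in females than in males, and 4 fell further in males. Some of the 13 rose in males, such as Actg2 and Casq1. These counts rest on single rats: without naïve female 1, either CCI female, naïve male 1 or either CCI male 0 to 2 genes passed (2762 to 3925 at an unadjusted p under 0.05), and 400 and 348 passed without naïve female 2 or naïve male 2. DESeq2 gave 1594 genes in the same test.

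Tnfaip6, a secreted hyaluronan-binding protein induced by inflammation, differed by 2.24 on the log2 scale. In females it went from 1.72 and 1.39 to 7.80 and 9.32 CPM (log2FC 2.46 ± 0.20 SE, adjusted p = 0.000942), while the log2FC in males was 0.23 ± 0.20 SE (interaction adjusted p = 0.0402). Atf3 rose in both sexes, with a log2FC of 3.37 in females and 2.61 in males (difference 0.78, interaction adjusted p = 0.0412). Csf1 likewise rose by 1.23 and 0.60 on the log2 scale (difference 0.64, interaction adjusted p = 0.0496). Rtel1, a DNA helicase of telomeres, rose from 14.97 and 15.5 to 32.3 and 30.8 CPM in females (adjusted p = 0.00141), with a log2FC of -0.04 in males (interaction adjusted p = 0.0405). Sparcl1, a matrix protein of glia and endothelium, rose from 129 and 130 to 214 and 247 CPM (adjusted p = 0.00325), with a male log2FC of 0.00 (interaction adjusted p = 0.0405). Cyp2s1, a cytochrome P450, rose in females by 1.04 and fell in males by 0.81 on the log2 scale (interaction adjusted p = 0.0402), and Adamts4 (0.60 and -0.76), Top2a (0.75 and -0.54) and Cenpf (0.90 and -0.59) also rose in females and fell in males. Cebpd rose in females by 0.56, with a log2FC of -0.46 in males that did not reach the fold threshold. Ceruloplasmin (0.60 and -0.01) and Prc1 (0.72 and -0.20) passed the interaction with a rise called in females and none in males. The female calls of Tnfaip6, Atf3, Csf1 and Rtel1 held whichever rat was left out, and that of Sparcl1 was lost without CCI rat 2 and that of Cyp2s1 without CCI rat 1.

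Among genes that fell, Hapln1 had a log2FC of -0.91 in females and 0.16 in males (interaction adjusted p = 0.0469). Pla2g7, a plasma lipase that cleaves platelet-activating factor, fell from 68.2 and 65.8 to 41.5 and 45.0 CPM in females (adjusted p = 0.00605), with a male log2FC of 0.22 (interaction adjusted p = 0.0405). The heparan sulfate-cleaving enzyme Hpse (-0.56 and 0.21) and LOC100174910 (-0.69 and -0.00) followed the same pattern. Sphk1, which makes sphingosine 1-phosphate, fell by 0.80 in females and by 1.85 in males on the log2 scale (interaction adjusted p = 0.0402), and Clk1 fell by 0.58 and 1.69 (interaction adjusted p = 0.0483). Actg2 and Casq1 fell in females and rose in males, with a difference of -4.81 and -2.07. In contrast, Vip differed by -0.02 (interaction adjusted p = 0.967), Bdnf by -0.08 (0.688), Cacna2d1 by 0.12 (0.616) and Vgf by -0.08 (0.937), and these p-values do not show that the sexes respond alike. For the erythroid genes, which had a male log2FC of -1.73 ± 1.01 SE in Hbb, the interaction did not pass (adjusted p = 0.481).

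A difference between the sexes also passed for genes that were not called in females. Sox10, Prx and Mag fell in males, with a log2FC of -0.76, -1.52 and -1.04, and the female values given above were -0.05, -0.37 and -0.02 (interaction adjusted p = 0.0412, 0.0475 and 0.0483). The mast cell proteases Mcpt1l1, Cma1 and Cpa3 fell in males, with a log2FC of -2.67, -3.19 and -2.67. In females Mcpt1l1 was at 1.70 and 2.19 CPM in naïve and 3.35 and 3.27 CPM in CCI rats, Cma1 at 0.670 and 0.754 against 1.15 and 1.06 CPM, and Cpa3 at 1.09 and 1.11 against 1.36 and 1.38 CPM, and none of the 3 was called by edgeR or DESeq2, with 1 at an unadjusted p under 0.05. Kcns3 differed by -0.73 (interaction adjusted p = 0.0412).

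**Figure D5:**
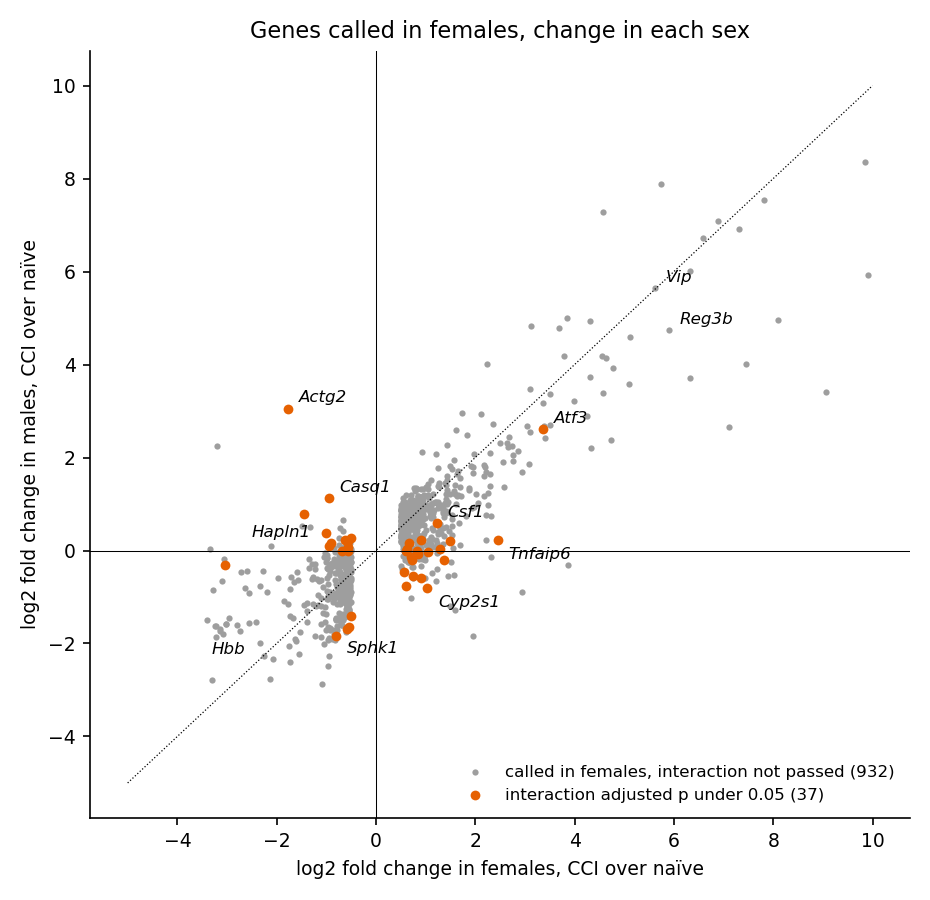
Log2 fold change of CCI over naïve in females and in males for 969 genes called in females and tested in both, with 37 genes past the interaction test in orange and a dotted line of equal change. All orange genes that rose in females lie below the line of equal change.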

How the data were processed

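Per the labels and the study's methods, the authors made strand-specific poly(A) libraries, sequenced paired ends in 2 batches, aligned the reads to the rat genome rn6 with HISAT2, removed ribosomal RNA reads and counted reads per Ensembl gene with featureCounts. CASAVA 1.8.2 and HISAT2 stand in the submitters' processing notes. The deposited counts are raw, with no normalization. Which batch each library was in is not given in the sources used here, so no batch term could be fitted.

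The 4 female libraries were analysed on their own with R 4.3.3 and edgeR 4.0.16: filterByExpr (minimum count 10, minimum total 15), TMM, and the quasi-likelihood test of CCI against naïve without a block, with Benjamini-Hochberg adjustment. Standard errors were taken from the log2FC and its F statistic. A prior count of 2 was added for log2 CPM. The interaction of sex and CCI was fitted over 8 libraries. DESeq2 1.42.0, other scalings and filters, the replicate block and leaving out each rat were alternatives. The fits were tested on simulated data.

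Replicate numbers did not pair the samples. Symbols came from the study's tables for 1961 identifiers, and promoter sequences from RefSeq (GRCr8), matched by symbol. The comparison, gene lists and tests were chosen with earlier results of these data known. Named genes were, per direction, the 12 with the largest log2FC among calls without overlap and a mean level of 1 log2 CPM or more, the 10 with the smallest adjusted p, up to 4 calls per list, the first 3 found markers of each cell type, sex steroid receptors, genes the study measured by qPCR, and up to 8 calls with the smallest interaction p. Depth was 39489103 to 47537920 counts in females. The values of 2 genes are not reported here. The authors' own fold changes and p-values were not used.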

Additional observations from a re-analysis of the deposited data

Results flagged for a closer look

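The change after CCI differed between females and males, by the interaction of sex and CCI over all 8 libraries at an adjusted p under 0.05 (edgeR), for 29 of the genes named in the text. The values are female minus male log2FC. Genes that rose in females had a difference of 0.78 (Atf3), 0.64 (Csf1), 2.24 (Tnfaip6), 1.10 (Rtel1), 0.85 (Sparcl1), 1.86 (Cyp2s1), 1.37 (Adamts4), 1.03 (Cebpd), 0.62 (Cp) and 1.28 (Socs3), and the mitotic genes had 1.30 (Top2a), 0.93 (Prc1) and 1.505 (Cenpf). Genes that fell in females with a lower log2FC than in males had -1.06 (Hapln1), -0.84 (Pla2g7), -0.67 (LOC100174910), -0.75 (Hpse), -2.72 (ENSRNOG00000034229), -4.81 (Actg2) and -2.07 (Casq1). Not all of these fell in males. Those that fell further in males had 1.06 (Sphk1) and 1.12 (Clk1). Of the genes not called in females, the difference was -0.73 (Kcns3), 1.03 (Mag), 1.17 (Prx), 0.72 (Sox10), 3.84 (Cma1), 2.995 (Cpa3) and 3.45 (Mcpt1l1). For each of them the difference kept its sign under every alternative of that test that gave a value, and lost its call in at least 6 of 15, mostly where 1 library was left out. Groups of 2 rats are too small for a search for outlying samples.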

How the results depend on the processing

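With 2 rats a side the number of calls followed single rats. Leaving out each rat in turn gave 103 to 1906 calls in females, 88 to 895 higher and 15 to 1011 lower, and 0 to 400 genes in the interaction of sex and CCI. Of 108 named genes called, 43 kept the call in all 4 of these fits, 59 lost it without CCI rat 1 and 60 without CCI rat 2. Of the named calls, 20 were lost in the edgeR fit over all 8 libraries, namely those of erythroid, B cell, neutrophil and platelet genes given above and those of Tnfrsf25, C4b, Gpx1, Pnisr, Snrnp70, ENSRNOG00000011557 and ENSRNOG00000011292, and 6 in the DESeq2 fit over all 8. Without a log2FC threshold 1625 genes passed, 1119 of them higher, and glmTreat against a log2FC of 0.5 called 161, with 132 higher and 29 lower. Calls in the other alternatives were 910 to 1250, and the share of higher calls was 53.1% in the DESeq2 fit over all 8 libraries (581 higher and 514 lower) against 64.7% as reported. The interaction passed in 1594 genes with DESeq2, 1032 without a filter on low counts, 1305 with a replicate block within each sex and 314 with 1 replicate block for both. The cause of these differences was not tested.

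The 2 rats that share a number did not deviate together (r = -0.01 and rho = 0.01 across 16177 genes, which are not independent), so the numbers were not read as pairs. With the replicate block in females 1149 genes were called, 673 higher and 476 lower, and 959 of them were among the 995. Of 134 named genes, all kept their direction under these alternatives except Esr1, Mag, Car3, Fabp4 and Adipoq, which were not called. Esr1 turned to 0.0011 in the edgeR fit over all 8 libraries, and without 1 rat the log2FC ran from -0.27 to 0.23 in Esr1, -0.11 to 0.069 in Mag, -2.995 to 0.83 in Car3, -2.52 to 0.67 in Fabp4 and -2.61 to 0.62 in Adipoq.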

Other observations

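Some genes outside the rule for named genes, chosen after their values were seen because they were among the 86 called whichever rat was left out, add to the groups above. Gap43, a growth cone protein, rose from 258 and 245 CPM to 499 and 520 CPM (2.03-fold, adjusted p = 0.000942), and Tnik, a kinase of the actin cytoskeleton, rose from 32.3 and 35.8 to 83.7 and 89.8 CPM (2.55-fold, adjusted p = 0.00036). Atp2b4, a plasma membrane calcium pump, rose from 65.4 and 72.2 to 172 and 179 CPM (2.55-fold, adjusted p = 0.000322), and Crtac1, a secreted matrix protein, from 22.6 and 23.6 to 53.4 and 58.2 CPM (2.42-fold, adjusted p = 0.000459). Ankrd1, a stress-responsive ankyrin repeat protein, rose from 0.44 and 0.259 to 7.39 and 9.25 CPM (23.4-fold, adjusted p = 0.000322), and Rasd1, a small GTPase induced by glucocorticoids, from 2.26 and 2.002 to 7.29 and 7.69 CPM (3.51-fold, adjusted p = 0.00193). Vtcn1, an inhibitory ligand of T cells, had 2 counts and 0 counts in the naïve rats and 4.83 and 3.996 CPM after CCI (adjusted p = 0.000472). Socs3, an inhibitor of JAK-STAT signalling that was not called in all of these fits, rose from 2.95 and 2.90 to 8.06 and 6.21 CPM (adjusted p = 0.00908), with a log2FC of 0.02 in males.

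Of the 644 genes that rose, 24 had at most 3 counts in each naïve library, and of the 351 that fell, 5 had at most 3 counts in each CCI library, so that their folds rest on very few reads.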
